A study of Mus musculus with 23 samples.

Results

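Transcripts of 8 genes of gastric and pancreatic epithelium (Tff1, Tff2, Muc1, Krt20, Tspan8, Onecut2, Foxa2 and Pdx1) were examined in epididymal fat pads of mice with and without a pancreatic tumor. The genes were selected on their values in these same fat libraries, as transcripts that stood out in pads of tumor-bearing mice, and they are 8 of the 16962 genes in the fat count table. The filter on low counts removed 0 genes. Tff1 and Tff2 had few counts outside KPC, and Foxa2 and Pdx1 had few in no tumor. These genes could pass such a filter only through pads of tumor-bearing mice. For both reasons the fat values of the 8 genes are given as a description, without a test.

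Male C57BL/6J mice were operated on at 8 weeks of age, either without implantation (no tumor) or with injection of KPC or KPC IL6KO tumor cells into the pancreas, and tissue was taken when the KPC group showed overt wasting. Epididymal fat of 4 mice per group was sequenced, and so was quadriceps of separate mice (3 without tumor, 4 with KPC and 4 with KPC IL6KO), each mouse giving 1 library. KPC cells came from a pancreatic tumor of a male, genetically engineered C57BL/6 mouse in which mutant alleles, Trp53 among them, were activated by Cre under the Pdx1 promoter. The KPC line used here was 1 clone that had received Cas9 with a null guide RNA, and KPC IL6KO was 1 clone whose Il6 gene had been targeted with Cas9, so the edit and other differences between clones cannot be told apart. The paper also reports larger tumors with KPC than with KPC IL6KO, with all groups killed at the same time. Tumor size therefore cannot be told apart from these differences either. Host mice kept their own Il6 gene. No tumor fat libraries held 28769074 to 56308545 counts (median 36954530.5). KPC libraries held 26306377 to 35905531 (median 31873026.5), and KPC IL6KO libraries 30662726 to 39946266 (median 33077043).

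The epithelia of the stomach, the pancreatic ducts and the gut share an origin in the foregut and midgut endoderm. Their mucous cells secrete trefoil peptides together with mucins, which protect the surface, and cell identity is set by transcription factors of the Foxa, Onecut and Pdx families. Pancreatic ductal tumors can carry genes of gastric mucous cells, whereas adipocytes are of mesodermal origin.

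Il6, the edited gene, had 0, 0, 1 and 4 counts in the 4 no tumor fat libraries (numbers 5 to 8 in order, as for all values by library). It had 136, 185, 65 and 62 counts in KPC, or 3.97, 5.30, 2.19 and 2.02 CPM (the count as a rate of the library size, after scaling by TMM). In KPC IL6KO it had 190, 1, 9 and 156 counts, or 4.66, 0.0343, 0.267 and 4.77 CPM. Because host cells can make this transcript, its level in a pad does not check which tumor a mouse carried.

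The library of KPC IL6KO 5 stood apart from the other 11. A list of seminal vesicle secretory genes, written after values were seen, had 7 of 8 genes in the table and summed to 86084 CPM in this library, 8.78% of its counts, with Svs2 as the most abundant gene. The same sum was between 0.401 and 50.8 CPM in the other 11 libraries. Means of the 8 genes in KPC IL6KO, and fitted values of all but Tff1 and Tff2, are therefore also given without it. Genes of epididymis epithelium also differed between pads. Gpx5, a secreted glutathione peroxidase of the epididymis, was at 39292, 52.2, 34256 and 4.81 CPM in no tumor, 28239, 40388, 24600 and 21347 CPM in KPC, and 85.8, 54957, 4.69 and 5.65 CPM in KPC IL6KO. All 4 KPC pads were thus high in Gpx5, along with no tumor 5, no tumor 7 and KPC IL6KO 6, and the part of this in the results below was not tested.

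The trefoil peptides Tff1 and Tff2 are secreted by gastric mucous cells and stabilize the mucus layer. Tff1 had 2, 0, 0 and 0 counts in no tumor, 288, 93, 318 and 592 in KPC, and 9, 0, 3 and 8 in KPC IL6KO. This corresponded to 8.41, 2.66, 10.7 and 19.3 CPM in KPC and to 0.221, 0, 0.0891 and 0.245 CPM in KPC IL6KO. Tff1 was thus above every no tumor and every KPC IL6KO library in all 4 KPC pads. Tff2 had 5, 1, 0 and 0 counts in no tumor, 127, 121, 1459 and 1190 in KPC, and 2, 0, 1 and 1 in KPC IL6KO. Its KPC values were 3.71, 3.47, 49.2 and 38.7 CPM, and no KPC IL6KO library exceeded 0.0491 CPM. A total of 3 counts, taken here as the floor of detection, equaled 0.0474 to 0.123 CPM depending on the fat library, and this floor covers counting error only. Tff2 was at or under 3 counts in all 4 KPC IL6KO pads.

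Muc1 is a transmembrane mucin of the apical surface of many epithelia. It had 88, 71, 82 and 386 counts in no tumor, 3113, 768, 2724 and 6917 in KPC, and 13268, 38, 563 and 2065 in KPC IL6KO. In CPM this was 3.60, 2.46, 1.91 and 6.10, then 90.9, 22, 91.8 and 224.9, then 325.6, 1.30, 16.7 and 63.1. All KPC libraries lay above all no tumor libraries, while KPC IL6KO spanned both, with library 6 below every no tumor library and library 5 the highest of the 12.

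Krt20 encodes a keratin of differentiated gastrointestinal epithelium, and Tspan8 encodes a tetraspanin of the cell surface of digestive epithelia and their tumors. Krt20 was at 2.62, 0.415, 0.302 and 16.2 CPM in no tumor, 70.3, 23.2, 33.2 and 132.2 CPM in KPC, and 151.1, 0.789, 7.25 and 89.4 CPM in KPC IL6KO. Tspan8 was at 2.99, 9.10, 0.465 and 15.3 CPM in no tumor, 46.8, 21.3, 47.2 and 120.4 CPM in KPC, and 295.9, 1.03, 14.1 and 76.1 CPM in KPC IL6KO. Both genes had measurable levels in no tumor pads, highest in library 8. KPC IL6KO 7 lay below the highest no tumor library for both genes, and KPC IL6KO 6 lay within the no tumor range.

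Among the transcription factors, Onecut2 acts in liver and pancreatic development. It was at 3.11, 0.277, 0.0465 and 0.237 CPM in no tumor, 37.7, 15.5, 39.0 and 221.3 CPM in KPC, and 443.5, 0.617, 12.4 and 66.5 CPM in KPC IL6KO. Foxa2, a pioneer factor of endoderm, had 5, 0, 1 and 2 counts in no tumor, 75, 45, 63 and 219 in KPC, and 795, 1, 37 and 127 in KPC IL6KO. Pdx1, which is required for the pancreas and the distal stomach, had 3, 0, 0 and 0 counts in no tumor, 20, 22, 78 and 165 in KPC, and 1041, 0, 47 and 106 in KPC IL6KO. For these 3 factors KPC IL6KO 5 was the highest library and KPC 8 the second highest, and KPC IL6KO 6 lay within the no tumor range.

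**Figure D1:**
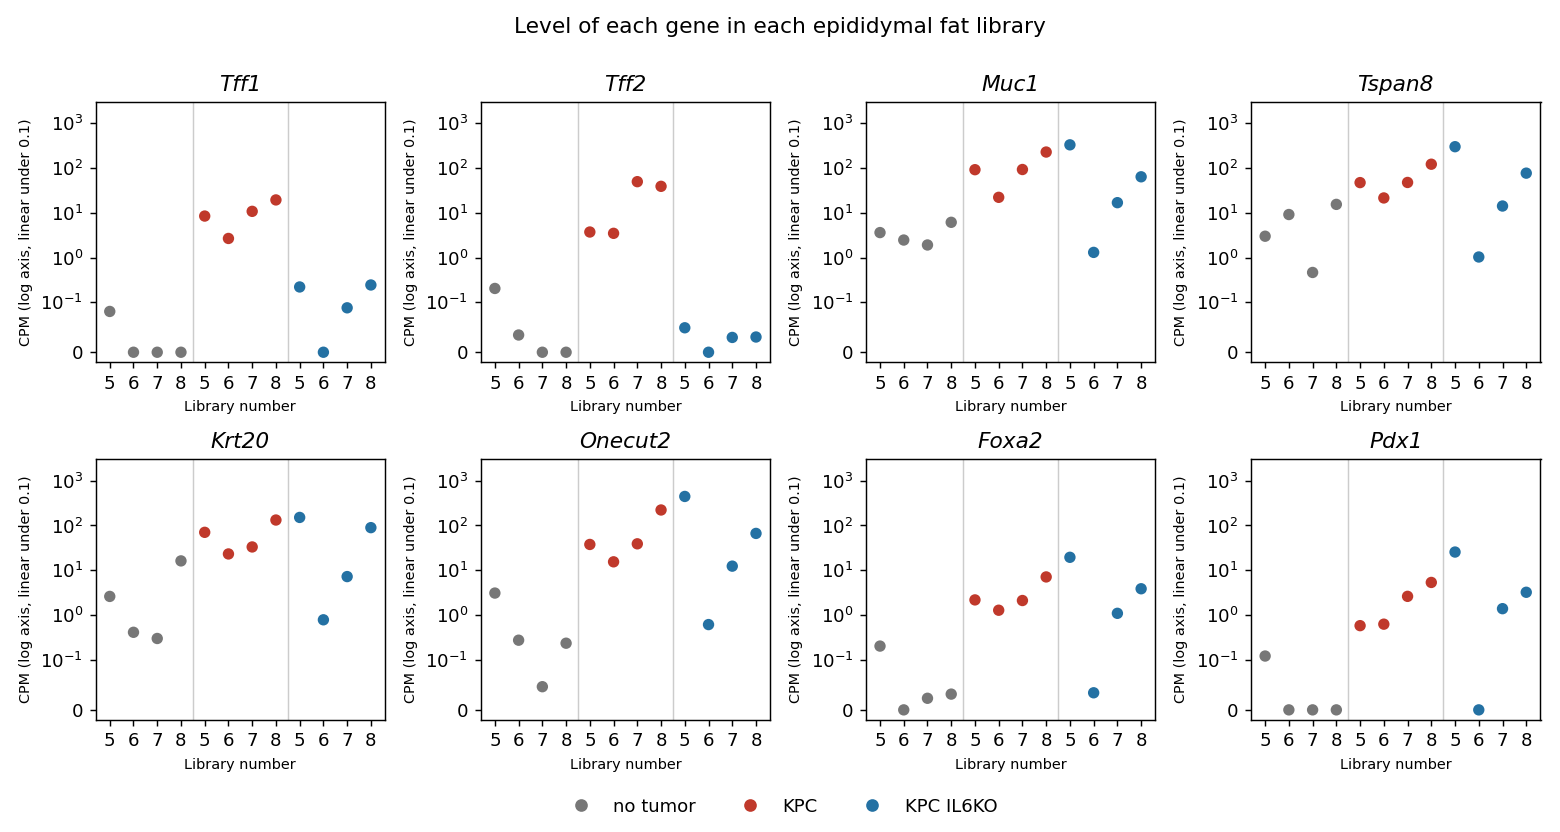
Level of each of the 8 genes in the 12 fat libraries, in CPM on a log axis that is linear under 0.1, with library numbers on the horizontal axis and 1 point per mouse. Tff1 and Tff2 are at most 0.245 CPM in KPC IL6KO, while the other 6 genes are highest there in library 5 and next highest in library 8.

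All 8 genes were higher in KPC than in no tumor with no overlap in CPM, as were 6.52% of all 16962 genes. In KPC IL6KO, 0 of 8 were above no tumor without overlap, against 1.52% of all genes. Between the tumor groups, 2 of 8 (Tff1 and Tff2) were higher in KPC without overlap, against 0.637% of all genes. These counts follow from how the genes were chosen, and nothing is read from them. In bulk tissue, more cells of a type and more RNA per cell cannot be told apart.

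Ratios of group totals, scaled to library size, are given with 95% intervals that cover counting error only. For Tff1 the ratio of KPC to no tumor rested on 2 no tumor counts and was 795 (interval 219.6 to 6572), and for Pdx1 it rested on 3 and was 117 (interval 39.6 to 571). Tff2 gave 595 (interval 273 to 1622) and Foxa2 61.9 (interval 31.1 to 144). Without no tumor 5, which left 1 and 3 no tumor counts, their fitted log2 FC went from 8.85 to 11.01 for Tff2 and from 5.68 to 7.05 for Foxa2. The lowest values were 8.18 for Tff2 without KPC 7 and 4.91 for Foxa2 without KPC 8. The fitted log2 FC of KPC against no tumor was 4.93 ± 1.35 (SE) for Muc1, 3.71 ± 1.56 for Krt20, 3.08 ± 1.38 for Tspan8 and 6.49 ± 1.96 for Onecut2. Without KPC 8 these were 4.27, 3.10, 2.46 and 5.13, the lowest when each library was left out. The highest were 5.34 for Muc1, 5.89 for Krt20 and 3.82 for Tspan8 without no tumor 8, and 8.71 for Onecut2 without no tumor 5. The median over the 8 genes was 6.05, and 5.49 with Tff1 and Pdx1 at the lower end of their intervals, against −0.10 over all genes. Without no tumor 5, which held all no tumor counts of Tff1 and Pdx1, the median was 7.88.

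For KPC IL6KO against no tumor the fitted log2 FC was positive for 7 of the 8 genes, Tff1 included, and negative for Tff2. The median fitted log2 FC was 4.32, the same with Tff1 and Pdx1 at the lower end of their intervals, and −0.03 over all genes. Fitted values were 4.85 for Muc1, 3.65 for Krt20, 3.79 for Tspan8, 7.23 for Onecut2, 6.63 for Foxa2 and 8.14 for Pdx1. Without KPC IL6KO 5 they were 2.94, 2.72, 2.12, 4.93, 4.75 and 5.84 in the same order, the lowest when each library was left out. Without no tumor 8 those of Muc1, Krt20 and Tspan8 were 5.26, 5.84 and 4.54, and without no tumor 5 those of Onecut2 and Foxa2 were 9.44 and 7.99. Pdx1 had 1194 counts in KPC IL6KO and 3 in no tumor over the group, a ratio of 466 (interval 159 to 2264). Tff2 had 4 counts in KPC IL6KO and 6 in no tumor over the group, a ratio of 0.781 (interval 0.162 to 3.29), and Tff1 had 20 and 2, a ratio of 11.7 (interval 2.85 to 103). All no tumor counts of Tff1 and Pdx1 and 5 of the 6 of Tff2 came from no tumor 5, and without it the fitted log2 FC of Tff2 turned from −0.67 to 1.48. Without KPC IL6KO 5 the median was 2.83. Mean Muc1 in KPC IL6KO was 101.7 ± 151.6 CPM (SD, n = 4) with this library and 27.1 ± 32.2 CPM (SD, n = 3) without it. Mean Onecut2 was 130.8 ± 210.5 CPM (SD, n = 4) with it and 26.5 ± 35.1 CPM (SD, n = 3) without it. Both comparisons use the same no tumor mice.

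Between KPC and KPC IL6KO, Tff1 and Tff2 differed by the widest margin of the 8. The ratio of KPC to KPC IL6KO was 67.9 (interval 43.8 to 112) for Tff1 and 762 (interval 297 to 2797) for Tff2. For the other 6 the fitted log2 FC lay between −1.71 (Pdx1) and 0.08 (Muc1), with standard errors of 1.14 (Muc1) to 1.54 (Pdx1). Without KPC IL6KO 5 all 6 were positive, between 0.57 (Pdx1) and 1.99 (Muc1), so Pdx1, Tspan8, Onecut2 and Foxa2 turned direction on this library. Without KPC 8 all 6 were negative, between −2.56 (Pdx1) and −0.56 (Krt20). The median over the 8 was −0.33, and it was 1.28 without KPC IL6KO 5, against −0.05 over all genes. A block on the replicate number, given below, also turned the median over the 8 positive.

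Counts were also set against Muc1 within each library, with 95% exact intervals that cover counting error in 1 mouse and not the spread between mice. Whether the transcripts come from the same cells was not tested. Tff1 had 9.25, 12.1, 11.7 and 8.56 counts per 100 Muc1 counts in the 4 KPC pads. In KPC IL6KO it had 0.0678 (interval 0.0310 to 0.129) in library 5, 0.533 (interval 0.110 to 1.57) in library 7 and 0.387 (interval 0.167 to 0.765) in library 8. KPC IL6KO 6 had 0 Tff1 counts beside 38 of Muc1, which allows up to 10.2 per 100. Tff2 had 4.08, 15.8, 53.6 and 17.2 per 100 Muc1 counts in KPC, and 0.0151, 0, 0.178 and 0.0484 in KPC IL6KO. The spread of Tff2 among KPC pads was wider than that of Tff1. Tspan8 was at 51.5, 96.9, 51.4 and 53.5 per 100 Muc1 counts in KPC and 90.9, 78.9, 84.2 and 120.6 in KPC IL6KO, so that all 4 KPC IL6KO pads were above 3 of the KPC pads and KPC 6 lay among them. The ranges overlapped for Onecut2 (41.5 to 98.4 and 47.4 to 136.2) and Krt20 (36.2 to 105.3 and 43.3 to 141.7). Pdx1 went the other way from the trefoil genes, at 0.642 (interval 0.392 to 0.994), 2.86 (interval 1.78 to 4.37), 2.86 (interval 2.26 to 3.59) and 2.39 (interval 2.03 to 2.78) per 100 Muc1 counts in KPC and 7.85 (interval 7.36 to 8.36), 8.35 (interval 6.06 to 11.3) and 5.13 (interval 4.18 to 6.24) in KPC IL6KO 5, 7 and 8. The values of these 3 pads were above those of all KPC pads, with the intervals of KPC IL6KO 8 and KPC 6 overlapping, and KPC IL6KO 6 had 0 counts, which allows up to 10.2. Foxa2 was at 2.41, 5.86, 2.31 and 3.17 in KPC and at 5.99, 6.57 and 6.15 in the same 3 pads, with KPC 6 nearest to them. The single Foxa2 count of KPC IL6KO 6 gave 2.63. No tumor pads had Muc1 counts of their own, and Tspan8 there ranged from 24.4 to 370.4 per 100.

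**Figure D2:**
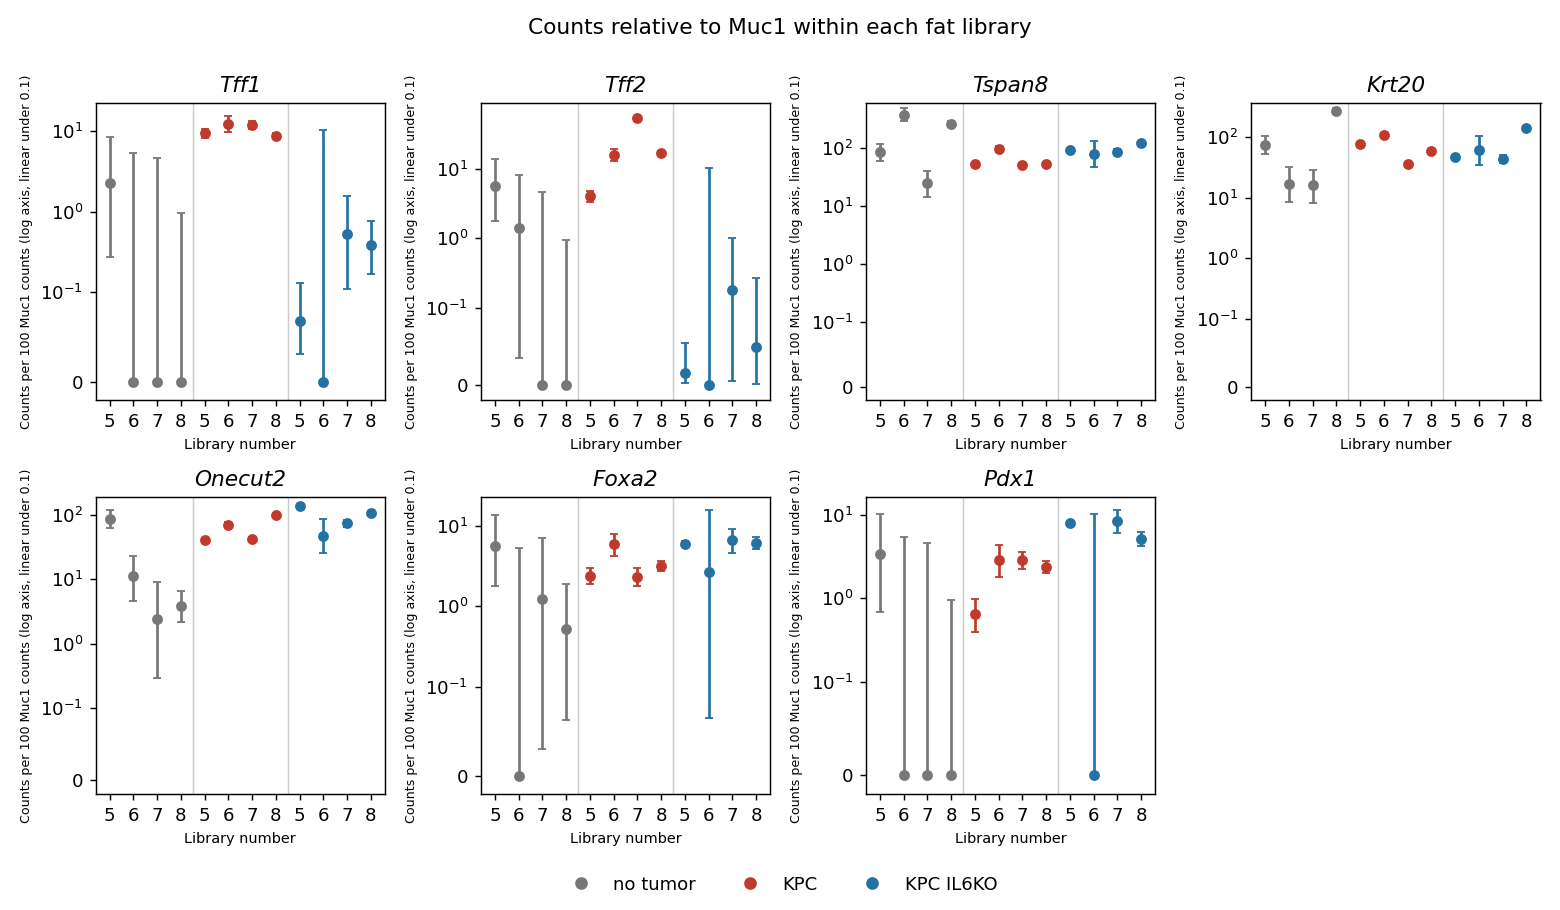
Counts of the other 7 genes per 100 Muc1 counts in each fat library, on a log axis that is linear under 0.1, with 95% exact binomial intervals. Tff1 lies between 8.56 and 12.1 in KPC and is at most 0.533 in KPC IL6KO, while Tspan8 (through KPC 6), Krt20 and Onecut2 overlap between the tumor groups and Pdx1 is highest in KPC IL6KO 5, 7 and 8.

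Levels were compared between genes per kilobase of exon, from the exons of GENCODE M21. In KPC the mean was 45.8 ± 36.2 CPM per kb (SD, n = 4) for Muc1, 40.7 ± 40.5 for Tff2, 34.6 ± 25.1 for Tspan8, 33.6 ± 25.6 for Krt20 and 14.6 ± 9.79 for Tff1. The transcription factors were lower, at 4.83 ± 5.91 CPM per kb for Onecut2, 1.34 ± 1.12 for Foxa2 and 1.07 ± 1.04 for Pdx1. Within each of the 4 KPC pads Krt20 was above Tff1, Tff1 above Onecut2 and Onecut2 above Foxa2 on this scale. The other 4 pairs of neighbors changed order between pads. In KPC IL6KO the mean was 56.9 ± 80.3 CPM per kb (SD, n = 4) for Tspan8, 43.3 ± 64.6 for Muc1, 32.2 ± 37.2 for Krt20, 8.05 ± 13 for Onecut2, 3.50 ± 5.60 for Pdx1 and 2.59 ± 3.83 for Foxa2. The trefoil genes came last, at 0.197 ± 0.164 for Tff1 and 0.0468 ± 0.0348 for Tff2. Without KPC IL6KO 5 the means were 17.9 ± 23.6 for Tspan8, 16.9 ± 25.6 for Krt20, 11.5 ± 13.7 for Muc1, 1.63 ± 2.16 for Onecut2, 0.716 ± 0.753 for Pdx1, 0.705 ± 0.838 for Foxa2, 0.158 ± 0.176 for Tff1 and 0.0344 ± 0.0298 for Tff2 (SD, n = 3), with Krt20 now above Muc1.

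The 8 genes did not vary as 1 unit over the 12 libraries. Pearson r of log2 CPM was 0.96 between Tff1 and Tff2, between 0.84 and 0.98 over the 15 pairs of the other 6, and between 0.45 and 0.75 over the 12 pairs of a trefoil gene with another. These values describe libraries that share group and tissue, and no p is given. The 10 genes of the fat table whose log2 CPM was most like the mean z-score of the 8 over 12 libraries included Cxcl17 (r = 0.986), Avil, Tmprss4, Il1rn, Otop3, Arl14, Ptprn, Aurkb and Tm4sf20 (r = 0.975). Cxcl17, a chemokine of mucosal epithelia, was at 0.0819, 0, 0 and 0.0790 CPM in no tumor, 5.90, 1.03, 5.73 and 10.5 CPM in KPC, and 7.80, 0, 1.19 and 2.26 CPM in KPC IL6KO.

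Annotated starts of 5 of the 8 genes had promoter sequences in the RefSeq table for build GRCm38.p6, with 7 windows in all since Foxa2 has more than 1, and those of Tff1, Tff2 and Onecut2 were not matched. Each window holds 300 bases around the start. Since 6 of the genes were high in the same pads, windows were searched on both strands for TGTTTA, a core of sites bound by Foxa factors, and for TATAAA, the TATA box. TGTTTA was in 13.4% of all 32851 windows and in 2 of the 7, those of Tspan8 and Krt20. TATAAA was in 13.6% of all windows and in 3 of the 7, which belong to Foxa2, Muc1 and Krt20. Among other motifs searched, ATCAAT of Onecut factors was in 7.54% of all windows and in 2 of the 7, and AGATAA of zinc finger factors such as Gata6 was in 11.2% and 2. TTCNNNGAA of Stat factors was in 8.30% and 0. The searched letters can overlap each other in a window, and a match is a description of letters only. The windows of Tspan8 (chr10:115817034-115817333, plus strand), Krt20 (chr11:99438104-99438403, minus strand) and Muc1 (chr3:89228806-89229105, plus strand) are shown, with TGTTTA and TATAAA in capitals. The Foxa2 window that holds TATAAA is not shown, and other motifs are not marked.
Tspan8: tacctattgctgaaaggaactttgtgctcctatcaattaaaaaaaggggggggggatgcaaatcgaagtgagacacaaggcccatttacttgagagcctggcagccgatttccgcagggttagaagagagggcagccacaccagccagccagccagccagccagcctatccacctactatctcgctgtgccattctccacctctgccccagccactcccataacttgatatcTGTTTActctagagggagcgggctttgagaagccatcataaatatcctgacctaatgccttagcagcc
Krt20: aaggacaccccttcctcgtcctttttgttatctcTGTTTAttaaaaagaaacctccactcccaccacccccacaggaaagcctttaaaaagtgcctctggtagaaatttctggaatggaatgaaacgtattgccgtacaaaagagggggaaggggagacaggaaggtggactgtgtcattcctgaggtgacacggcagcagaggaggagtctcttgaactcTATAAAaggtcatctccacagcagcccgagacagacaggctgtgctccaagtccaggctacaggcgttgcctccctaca
Muc1: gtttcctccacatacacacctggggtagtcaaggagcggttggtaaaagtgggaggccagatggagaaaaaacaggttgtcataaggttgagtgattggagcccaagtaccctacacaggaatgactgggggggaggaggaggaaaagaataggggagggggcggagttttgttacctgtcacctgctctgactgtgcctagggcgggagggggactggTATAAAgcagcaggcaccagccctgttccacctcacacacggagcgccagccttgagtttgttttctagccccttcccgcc

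Across the fat table, edgeR's quasi-likelihood test with Benjamini-Hochberg adjustment called 0 of 16962 genes (0%) for KPC against no tumor, 0% for KPC IL6KO against no tumor and 0% for KPC against KPC IL6KO, at FDR of at most 0.05 and FC of at least 1.5. Unadjusted p was under 0.05 for 2061, 1584 and 1062 genes. The edgeR likelihood ratio test called 268 genes (1.58%) as higher in KPC and 209 genes (1.23%) as higher in KPC IL6KO, each against no tumor, and 7 genes (0.0413%) as higher in KPC when the tumor groups were compared. DESeq2 called 364, 282 and 19 as higher in the same order. Calls as lower were 145, 0 and 59 by the likelihood ratio test and 221, 4 and 106 by DESeq2. Gene lists were set beside the 8 genes, written from general knowledge but with earlier results of these data known. Their values and calls are therefore a description too, also where the share over all genes is given. List genes with few no tumor counts, such as Cdx2 (4 in total) and Fabp1 (3 in total), could pass a filter on low counts only through tumor pads. The quasi-likelihood test called no gene of any list, so values are given.

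Of 16 other gastric mucous cell genes, 11 were in the table. Their median log2 FC was 2.95 for KPC against no tumor, with 10 higher, as were 6884 of all 16962 genes. It was 3.31 for KPC IL6KO against no tumor, or 1.07 without KPC IL6KO 5. The most abundant, Dmbt1, a secreted scavenger receptor protein of mucosal surfaces, was at 28.9, 0.692, 0.326 and 0.174 CPM in no tumor, 857, 185, 736 and 1507 CPM in KPC, and 3642, 6.96, 245 and 827 CPM in KPC IL6KO. Agr2, a disulfide isomerase of mucus-producing cells, averaged 42.2 ± 47.3 CPM in no tumor, 88.5 ± 43.5 in KPC and 59.9 ± 43.7 in KPC IL6KO (SD, n = 4 each). Gkn1, a gastrokine of the stomach surface named after its values were seen, was at 4.20, 0.859, 6.74 and 12.3 CPM in KPC and 0.295, 0, 0.0297 and 0.978 CPM in KPC IL6KO. Dmbt1 thus followed Muc1, and Gkn1 lay nearer to the trefoil genes, with KPC IL6KO 8 above KPC 6. The likelihood ratio test called 4 of the 11 (Gkn1, Muc6, Anxa10 and Dmbt1) as higher in KPC than in no tumor and 1 (Dmbt1) in KPC IL6KO. It called 1.58% and 1.23% of all genes as higher in these comparisons. Genes it called in this and the following lists are named after their values were seen.

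Of 19 foregut and pancreatic transcription factors, 16 were in the table, with a median log2 FC of 1.99 for KPC and 2.14 for KPC IL6KO against no tumor, the latter 0.84 without KPC IL6KO 5. Sox9, among the most abundant of the list, was also high in no tumor pads (31.8 ± 28.5 CPM, SD, n = 4). The likelihood ratio test called Onecut3 and Cdx2 in KPC and in KPC IL6KO. Of 12 intestinal epithelial genes 8 were in the table, with medians of 2.57 and 2.11, and Krt23 and Cdh17 were the most abundant. Cdh17, a cadherin of intestinal epithelium, averaged 9.29 ± 2.74 CPM in no tumor and 63.9 ± 42.3 CPM in KPC (SD, n = 4). The likelihood ratio test called 4 of the 8 (Cdh17, Phgr1, Fabp1 and Ceacam1) as higher in KPC than in no tumor and 3 (Phgr1, Fabp1 and Ceacam1) in KPC IL6KO. Over all genes the shares called as higher were 1.58% and 1.23%. Of 9 other mucins 6 were in the table, with medians of 0.41 (0.07 without no tumor 6, 0.95 without no tumor 5) and 0.00 (−0.73 without KPC IL6KO 6, 0.52 without no tumor 5). The most abundant, Muc15 and Muc5b, were high in the pads that were high in Gpx5, and the likelihood ratio test called Muc13 as higher in each tumor group.

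Pancreatic tissue itself was looked for with acinar and islet genes. Of 21 acinar genes 3 were among the genes analysed, with medians of 0.76 (0.50 without KPC 8) and 1.18 (0.50 without KPC IL6KO 5). The sum came mostly from Cuzd1 in 11 libraries, where it was at 1544 to 6488 CPM, no tumor included, and it was at 5.15 CPM in KPC IL6KO 5. Cela1 was the next most abundant. The remaining gene, Bhlha15, a transcription factor of acinar and other secretory cells, was at 0.573, 0.138, 0.767 and 0.206 CPM in no tumor, 0.409, 0.573, 1.65 and 2.02 CPM in KPC, and 34.8, 1.30, 0.624 and 12.6 CPM in KPC IL6KO. It was high in KPC IL6KO 5 and 8, and the likelihood ratio test called it in KPC IL6KO against no tumor. Of 11 islet genes 6 were analysed, with medians of 0.31 (0.11 without KPC 6) and −0.10 (−1.11 without KPC IL6KO 6, 0.03 without KPC IL6KO 8) and a summed level of 2.16 to 14.6 CPM over the 12 libraries, led by Ppy and Pcsk2.

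Common epithelial markers overlapped between the groups in their summed level. All 23 were in the table, and their median log2 FC against no tumor was −0.02 for KPC (−0.31 without no tumor 6, 0.30 without no tumor 5) and −0.42 for KPC IL6KO (−0.77 without KPC IL6KO 6, −0.10 without no tumor 5). The sum was 3606, 1241, 3606 and 2468 CPM in no tumor, 3731, 3203, 3318 and 4979 CPM in KPC, and 4681, 3746, 2093 and 2815 CPM in KPC IL6KO. Krt18 and Krt8, the most abundant, were at 98.5 CPM or more in every library. With Krt19 they were the 3 of the 23 that were higher in KPC than in no tumor without overlap, against 6.52% of all genes, with log2 FC of 1.27, 1.27 and 1.39. Krt18 ranged over 98.5 to 398 CPM without tumor and 525 to 1038 CPM with KPC, Krt8 over 113 to 298 and 322 to 906 CPM, and Krt19, a keratin of ducts, over 95.8 to 132 and 138 to 461 CPM. All 3 overlapped between no tumor and KPC IL6KO. The 20 epididymis epithelium genes, all in the table and led by Gpx5 and Adam7, had medians of −0.36 (−0.68 without no tumor 6, 0.59 without no tumor 5) and −1.14 (−6.90 without KPC IL6KO 6, −0.15 without no tumor 5). Their sum was 112960, 13887, 89440 and 19163 CPM in no tumor, 47596, 81721, 54774 and 51676 CPM in KPC, and 4313, 112710, 16016 and 10363 CPM in KPC IL6KO. Pate4, which is also in the seminal vesicle list, was 3534 of the 4313 CPM in KPC IL6KO 5. KPC IL6KO 6, the tumor-bearing pad with the lowest level of the 8 genes, was thus among the highest in epididymis genes. Whether the piece of pad taken had a part in the members' levels was not tested.

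Mesothelial cells cover the pad and share some genes with epithelium. The 11 mesothelial markers, all in the table, had medians of 0.21 (−0.05 without KPC 5, 0.53 without no tumor 6) and 0.69 (0.37 without no tumor 7, 1.14 without no tumor 8), and their sum was 211, 240.4, 138 and 404 CPM in no tumor, 502, 319, 256 and 299.9 CPM in KPC, and 766, 208, 304 and 509 CPM in KPC IL6KO. Msln, which pancreatic tumors can also carry, was at 5.98, 21.8, 5.53 and 32.7 CPM in no tumor, 104, 37.9, 51.4 and 149 CPM in KPC, and 546, 8.61, 53.8 and 162 CPM in KPC IL6KO, and Upk1b was the next most abundant. The likelihood ratio test called Msln in KPC IL6KO against no tumor. The 10 cell proliferation genes had medians of 1.88 and 1.70, the latter 0.67 without KPC IL6KO 5, and the sum was 134, 59.5, 109.9 and 172 CPM in no tumor, 263, 372, 423 and 756 CPM in KPC, and 1022, 51.5, 150.1 and 355 CPM in KPC IL6KO. Top2a and Mki67 led this list, and the likelihood ratio test called Cdk1, Aurkb and Ccna2 in KPC and Ccna2 in KPC IL6KO, each against no tumor. KPC IL6KO 5 was the highest library of this list, and KPC IL6KO 6 was below all no tumor libraries.

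Adipocyte markers were present in every library of this adipose tissue. All 10 were in the table, with medians of −1.39 (−0.31 without no tumor 6) and −0.34 (−0.97 without KPC IL6KO 7, 0.80 without no tumor 6). Their sum ranged from 1810 to 29634 CPM, the highest in no tumor 6, with Fabp4 and Cfd the most abundant, and the likelihood ratio test called Lep as lower in KPC than in no tumor. Of 12 hepatocyte markers 9 were in the table, with medians of 0.69 (−0.01 without KPC 5, 1.11 without KPC 6) and 3.75 (1.17 without KPC IL6KO 6). Cyp2e1, which adipose tissue also expresses, was the most abundant, followed by Fga, and the likelihood ratio test called Ambp in each tumor group and Apoa1 in KPC IL6KO. The medians over all genes were −0.10 and −0.03. The 7 seminal vesicle genes had medians of 0.36 and 11.93, the latter from KPC IL6KO 5.

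**Figure D3:**
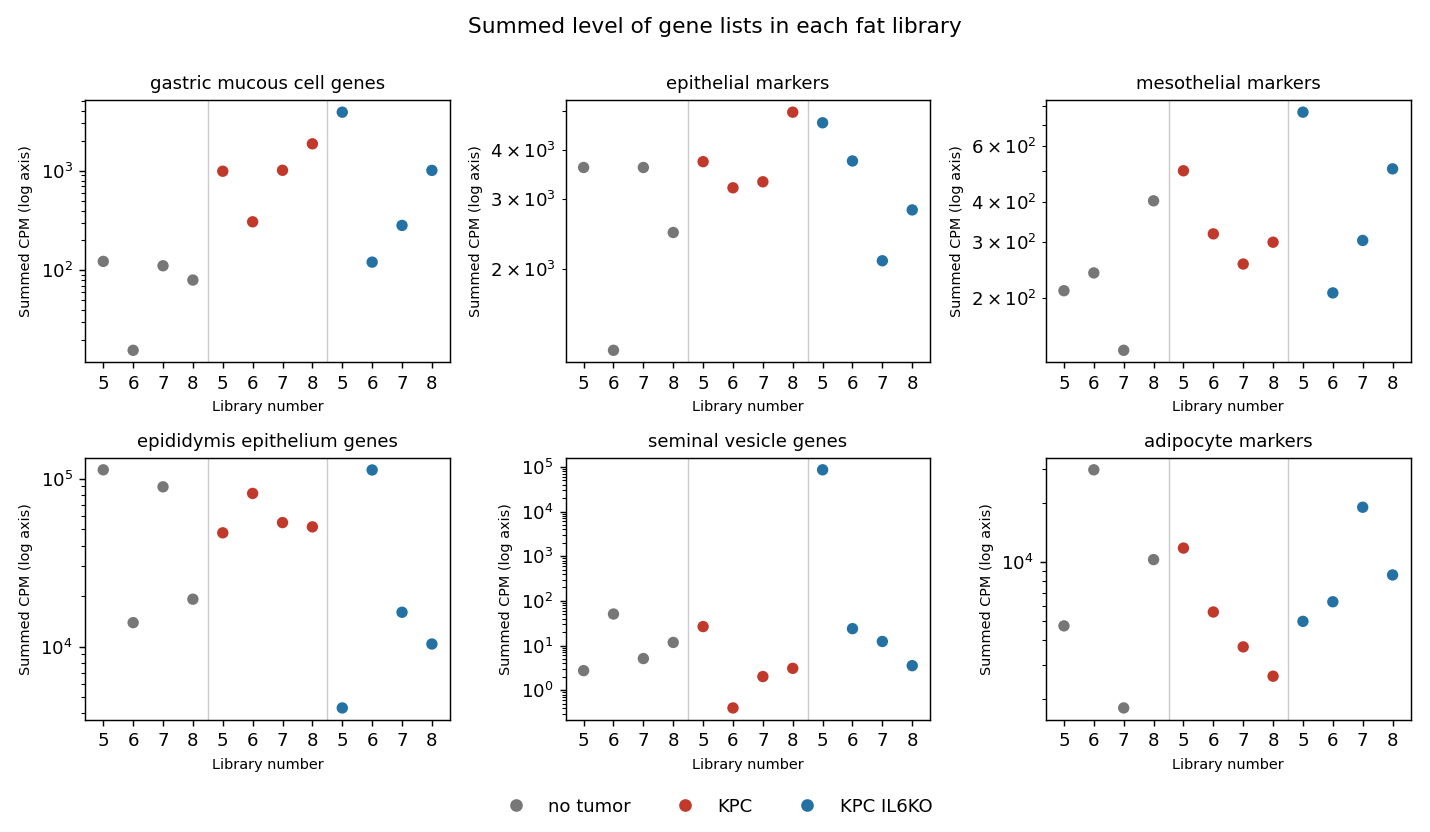
Summed CPM of 6 gene lists in each of the 12 fat libraries, on log axes that differ between panels, with 1 point per mouse. Gastric mucous cell genes are at 307.9 CPM or more in KPC and at 123 CPM or less in no tumor, while the sums of common epithelial markers overlap between all groups.

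In quadriceps, which was not used to choose the genes, 2 of the 8 were in the table of 12831 genes. Tspan8 was at 54.3, 45.3 and 65.1 CPM in no tumor, 40.0, 39.5, 18.3 and 28.6 CPM in KPC, and 44.6, 48.1, 47.5 and 55.2 CPM in KPC IL6KO (numbers 1 to 3 or 1 to 4 in order). All 4 KPC libraries were below all others, but the share of all muscle genes that separate in this way was not computed. Tspan8 fell in KPC against no tumor (log2 FC −0.79 ± 0.23 SE, FDR = 0.00929, edgeR's quasi-likelihood test), and it was also lower there than with KPC IL6KO tumors (log2 FC −0.63 ± 0.22, FDR = 0.0218). These comparisons called 55.7% and 53.6% of all genes, so a call is the common outcome there. KPC IL6KO did not pass the test against no tumor (log2 FC −0.17 ± 0.23, FDR = 1.00), a comparison with 0 of 12831 genes called (0%) by the quasi-likelihood test, 887 at an unadjusted p under 0.05, 96 by DESeq2 and 95 by the likelihood ratio test. Without KPC 3, KPC 4 or KPC IL6KO 4 the difference of Tspan8 between the tumor groups no longer met both thresholds (log2 FC −0.44, −0.58 and −0.56, FDR = 0.0250, 0.0501 and 0.0574).

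Muc1 was low in quadriceps, at 0.468, 0.686 and 0.820 CPM in no tumor, 2.13, 0.428, 0.475 and 1.32 CPM in KPC, and 0.748, 0.561, 0.614 and 0.463 CPM in KPC IL6KO. It did not pass the test in KPC against no tumor (log2 FC 0.76 ± 0.53, FDR = 0.216) or against KPC IL6KO (log2 FC 0.87 ± 0.47, FDR = 0.119), where it passed without KPC 2 (log2 FC 1.13, FDR = 0.0350) or KPC 3 (log2 FC 1.12, FDR = 0.0442). Fat and muscle came from separate mice and were counted in separate tables, so levels are not compared between them.

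**Figure D4:**
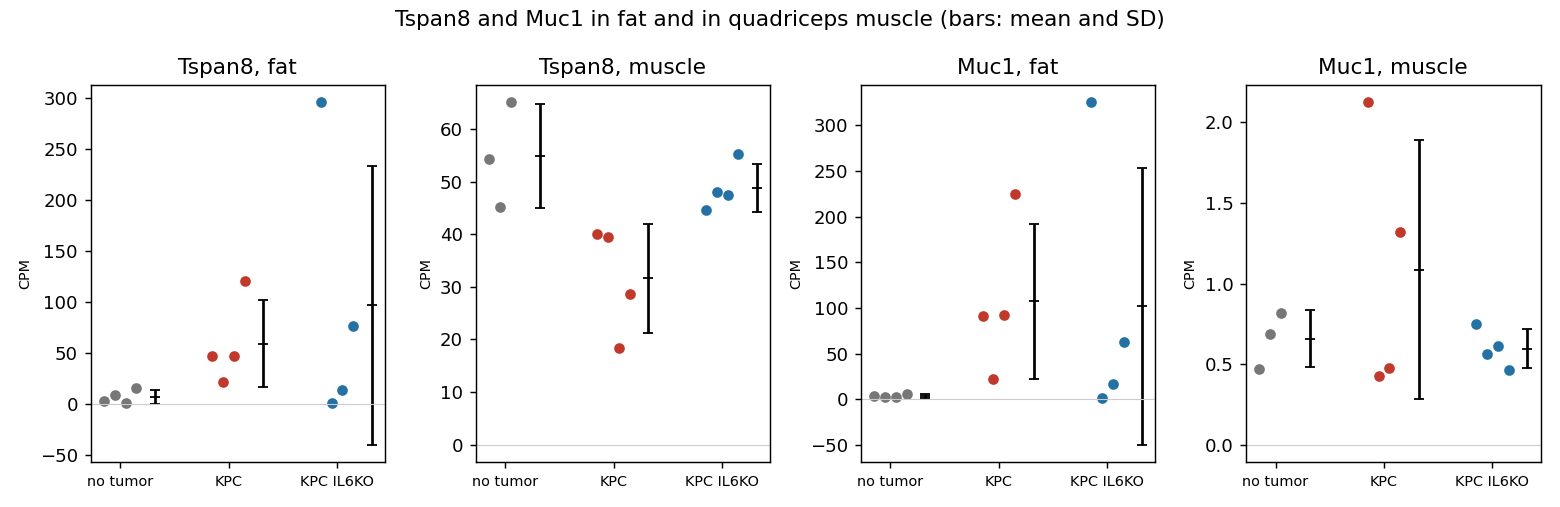
CPM of Tspan8 and Muc1 in fat and in quadriceps by group, with 1 point per library and a bar for the mean and SD, on linear axes that differ between panels. Tspan8 is higher in KPC than in no tumor in all 4 fat libraries and lower in all 4 quadriceps libraries.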

How the data were processed

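The authors aligned paired reads with STAR to mouse build mm10 and assigned uniquely mapped reads to genes with featureCounts 1.5.1, per the labels, and deposited 1 table per tissue of raw counts per gene without normalization. The strand setting of counting is not given in the sources used here, and the paper's methods and the sample records name different library kits for fat. Fat and muscle RNA were isolated and sequenced at separate times, so all tests were within a tissue. From the 23 libraries, counts were normalized by TMM and all 3 groups of a tissue were fitted together with edgeR 4.0.16 (quasi-likelihood, default form, filterByExpr, which removed 0 genes) in R 4.3.3, with DESeq2 1.42.0 and the edgeR likelihood ratio test as alternatives, and figures were drawn with Python 3.11.15 and matplotlib 3.10.9. A call needed both FDR ≤ 0.05 (Benjamini-Hochberg) and FC ≥ 1.5. log2 CPM used a prior count of 2. No member overlapped another gene of the fat table in GENCODE M21, which was matched by symbol. The members and gene lists were chosen with earlier results of these data known, and the seminal vesicle list was added after values were seen. Genes named were the 8 members, Il6, the 2 genes of highest mean CPM of each list, those called, and the 10 genes most like the members, and others are said to be named after their values were seen. Some genes that this rule takes are not reported here. Alternatives were other tests, filters and normalizations, a replicate block, only the groups compared, pads with Gpx5 of at least 1000 CPM, and leaving out each library. Scripts were tested on simulated data with known changes, and no pair of libraries of a group agreed within sampling noise (chi-square per degree of freedom at least 84.7).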

Additional observations from a re-analysis of the deposited data

Results flagged for a closer look

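In a group of 4 libraries, a library was marked when its gap to the nearest other exceeded Dixon's critical share of the range. Of 70 groups looked at, 16 were marked. Chance marks about 1 in 20 of separate groups, but these groups share libraries, so the 16 are not set against that rate. Among no tumor pads, library 5 was marked for Tff1 (0.0819 CPM), Tff2 (0.205 CPM), Onecut2 (3.11 CPM), Foxa2 (0.205 CPM) and Pdx1 (0.123 CPM), and library 8 for Krt20 (16.2 CPM). The Tff1, Tff2, Foxa2 and Pdx1 levels of no tumor 5 rest on 2, 5, 5 and 3 counts. For Tff1 and Pdx1 the other no tumor pads had 0 counts, so any count would have been marked. KPC 8 was marked for Onecut2 (221.3 CPM), Foxa2 (7.12 CPM) and the summed foregut and pancreatic transcription factors (282.8 CPM). KPC IL6KO 5 was marked for Onecut2 (443.5 CPM), Pdx1 (25.5 CPM) and the summed seminal vesicle genes (86084 CPM), and KPC 5 for the last list at 26.6 CPM. KPC IL6KO 6 was marked for the summed other mucins (2268 CPM) and the summed epididymis epithelium genes (112710 CPM), and KPC IL6KO 7 for the lowest summed intestinal epithelial genes (42.3 CPM).

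Tff2 in fat was above the no tumor mean in all 4 KPC pads (mean difference 23.7 CPM) and below it in all 4 KPC IL6KO pads (mean difference −0.0325 CPM). The no tumor mean comes mostly from the 5 counts of library 5. Without that library the fitted log2 FC of KPC IL6KO against no tumor turned from −0.67 to 1.48, and the difference was not tested.

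Tspan8 was above the no tumor mean in all 4 KPC fat pads (mean difference 52.0 CPM) and below it in all 4 KPC quadriceps libraries (mean difference −23.3 CPM). The difference between tissues was not tested.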

How the results depend on the processing

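The quasi-likelihood test called 0 genes in each fat comparison, and other settings gave other counts. DESeq2 called 364 up and 221 down for KPC against no tumor, 282 and 4 for KPC IL6KO against no tumor, and 19 and 106 for KPC against KPC IL6KO. The likelihood ratio test called 268 and 145, 209 and 0, and 7 and 59. The newer quasi-likelihood fit called 15 up and 1 down for KPC against no tumor and 1 up for KPC against KPC IL6KO. With only the groups compared, KPC against no tumor gave 166 up and 8 down. With only the pads of at least 1000 CPM of Gpx5, which left 1 KPC IL6KO library, it gave 342 up and 51 down. The cause was not tested.

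The median log2 FC of the 8 genes for KPC against no tumor was 3.64 with at least 10 counts in every library, where fewer of the genes were left, and within the spread of the libraries under the other settings. In the pads of at least 1000 CPM of Gpx5 it was −1.37 for KPC IL6KO against no tumor and 6.78 for KPC against KPC IL6KO, both from KPC IL6KO 6 alone. Leaving out each library gave 5.02 to 7.88 for KPC against no tumor, 2.83 to 5.55 for KPC IL6KO against no tumor and −0.95 to 1.28 for KPC against KPC IL6KO. Calls over these fits ranged from 0 to 14 up and 0 to 1 down for KPC against no tumor, from 0 to 12 up and 0 to 1 down for KPC IL6KO against no tumor, and stayed at 0 between the tumor groups. The 14 and the 12 were without KPC IL6KO 6, and without KPC 8 the first was 1.

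In quadriceps, with alternatives chosen after seeing the data, Tspan8 in KPC against no tumor kept its call in every fit (log2 FC −0.93 to −0.60, FDR 0.00578 to 0.0453 when each library was left out). Against KPC IL6KO it ranged from −0.76 to −0.44, and Muc1 from 0.30 to 1.13. Of the 10 genes most like the 8, 8 were shared at a prior count of 0.5 or 5 and 6 with Spearman's rho. Mean CPM of the 8 genes moved by less than the SD under RLE and plain totals in 48 of 48 values.

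Groups share numbers that mark different mice. Of 12 same-numbered pairs in fat, 7 had correlated deviations over 0.1 (r from −0.54 to 0.65), and 3 libraries correlated best with their own number. The replicate block gave 0 calls in each fat comparison and medians of 7.28, 3.57 and 1.20 for the 8 genes. The last, for KPC against KPC IL6KO, was −0.33 without the block, so its direction turned. In quadriceps Tspan8 kept its calls with the block (log2 FC −0.84, FDR = 0.0216, and −0.65, FDR = 0.0388). Depth limits Tff1, Tff2, Foxa2 and Pdx1 in no tumor and the trefoil genes in KPC IL6KO, where group totals were 2 to 20 counts.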
